A study of Rattus norvegicus with 9 samples.

Results

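Cathepsins are the main proteases of the lysosome, and 9 genes of this system were followed across 3 culture media of rat pXEN cells: the cysteine cathepsin genes Ctsb, Ctsc, Ctsh, Ctsl and Ctsz, the aspartic cathepsin gene Ctsd, the serine carboxypeptidase gene Ctsa, the legumain gene Lgmn and the progranulin gene Grn. They were taken by gene symbol from the gene-strand counts of 9 RNA-seq libraries. All 9 were in the tables of 17315 genes, and all 9 were also among the 9130 genes with enough counts to be tested. pXEN cells grow from rat embryos as stem cells of primitive extraembryonic endoderm, a tissue that goes on to line the yolk sac. All were of 1 line, RX1, from WKY rats, and each medium had 3 libraries. Nothing in the labels says that these came from separate cultures, so the spread behind each p-value is that between libraries and may be technical.

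Cells of the CPE group grew on collagen I in a DMEM/F12 and Neurobasal mixture carrying N2 and B27 supplements and β-mercaptoethanol, with Chir99021 at 1 µM (it blocks the kinase Gsk3 and so turns on Wnt signalling) and 10 ng/ml each of Pdgf and Egf. Cells of the LPE group had the same base, coating, Pdgf and Egf, and 10 ng/ml Lif instead of Chir99021. Cells of the T group grew on fibronectin in a DMEM and MCDB mixture with fetal bovine serum at 2%, the glucocorticoid drug dexamethasone at 0.5 µM, LA-BSA, ITS, ascorbic acid and β-mercaptoethanol, with Lif, Pdgf and Egf at 10 ng/ml each. Pdgf and Egf were therefore common to every group, no serum is listed for CPE or LPE, and these are called the N2B27 media below. CPE and LPE differ from T in serum, dexamethasone, base medium, supplements and coating at once, so the effects of these cannot be told apart. CPE also differs from T in Lif and Chir99021. Between CPE and LPE both Lif and Chir99021 change together, so the effects of these 2 cannot be told apart either.

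Lysosomal proteases are made as inactive precursors, tagged with mannose 6-phosphate, carried to the lysosome by sorting receptors and activated there by cleavage, in part by each other. Endoderm of the rodent yolk sac takes up maternal proteins and breaks them down in lysosomes to feed the embryo. Progranulin is a secreted glycoprotein that reaches lysosomes through the receptor sortilin or together with prosaposin, where cathepsins and legumain cut it into granulins.

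Each CPE library held 3127352 to 4418465 gene counts, each LPE library 3119049 to 3233526 and each T library 1698764 to 2161228. Levels are given as CPM, gene counts scaled to 1000000 per library with TMM factors, and 1 count was worth 0.226 to 0.589 CPM before these factors. In CPE libraries 33 to 92 genes had a count of 1, in LPE libraries 26 to 58 and in T libraries 511 to 791. Genes with any count numbered 9162 to 9878 in CPE libraries, 8607 to 9314 in LPE and 10143 to 10621 in T. These differences and the lower depth of T go with the contrast to T. After all libraries were thinned to 1698764 counts, an alternative chosen after seeing the data, the calls of all members were as given below except that of Ctsc in CPE against T. Thinning evens depth only and cannot address the differences in genes detected or in genes with a count of 1. The median coefficient of variation between replicates, over 6303 genes of at least 20 CPM, was 16.9% in CPE, 20.1% in LPE and 10.4% in T. All 10 pXEN regulator and marker genes checked, among them Gata4, Gata6, Sox17 and Pdgfra, had counts in every library, and their summed level was 7221 to 8709 CPM in CPE, 12389.9 to 14792 in LPE and 6679.9 to 7240.4 in T. By itself Lama1, a laminin chain gene, held 4206 to 5289 CPM in CPE, 8726 to 11158 in LPE and 2212 to 3269 in T. The sum therefore does not stand for all 10 genes. Levels of the 10 genes moved with the media: by edgeR 5 were higher and 4 lower in CPE against T, 3 higher and 2 lower in LPE against T, and 3 lower in CPE against LPE. The shares of all genes called are given with the members below. Lama1 was 1.66-fold higher in CPE and 3.50-fold higher in LPE than in T. On the log2 scale, Dab2, an endocytic adaptor gene, fell by 1.32 in CPE against T, and Sox17, an endoderm transcription factor gene, fell by 0.85. Of 13 macrophage markers, 10 (Ptprc, Adgre1, Itgam, Aif1, Tyrobp, C1qa, C1qb, C1qc, Fcgr2b and Laptm5) had 0 counts in all 9 libraries, and the list summed to 8.18 to 23.3 CPM in CPE, 5.59 to 17.9 in LPE and 4.65 to 8.73 in T. Of 8 fibroblast markers, 5 (Col1a2, Dcn, Lum, Postn and Pdgfrb) had 0 counts in all libraries, and the list summed to 0 to 6.44 CPM in CPE, 0 in LPE and 1.39 to 32.4 in T. The part of these 3 lists in the results was not tested. In bulk RNA, fewer cells of a type and less RNA per cell cannot be told apart.

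The upstream sequences of Ctsd, Grn and Ctsl are shown because these genes gave the contrasting patterns described below: Ctsd moved in opposite directions in the N2B27 media, Grn was higher in both and Ctsl was lower in CPE. Each is the 250 bases before the annotated start, 5′ to 3′ on the gene's strand, from RefSeq on build GRCr8, a later build than the one the counts were made on. Capitals mark CACGTG (the core of the element bound by the lysosomal regulator Tfeb), CCAAT and GGGCGG, each on either strand. The Ctsd window is chr1:206968822-206969071 on the minus strand, the Grn window chr10:87887584-87887833 on the plus strand and the Ctsl window chr17:769854-770103 on the plus strand.
Ctsd: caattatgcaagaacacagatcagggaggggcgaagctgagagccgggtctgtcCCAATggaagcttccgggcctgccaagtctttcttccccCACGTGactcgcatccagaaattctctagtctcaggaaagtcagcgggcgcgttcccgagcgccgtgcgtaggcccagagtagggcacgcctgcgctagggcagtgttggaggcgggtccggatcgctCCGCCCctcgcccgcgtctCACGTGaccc
Grn: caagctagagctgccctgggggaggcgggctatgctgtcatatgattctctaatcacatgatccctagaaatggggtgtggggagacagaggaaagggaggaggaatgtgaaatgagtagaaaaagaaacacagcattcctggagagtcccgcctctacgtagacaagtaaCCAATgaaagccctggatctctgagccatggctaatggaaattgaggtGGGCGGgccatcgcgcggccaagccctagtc
Ctsl: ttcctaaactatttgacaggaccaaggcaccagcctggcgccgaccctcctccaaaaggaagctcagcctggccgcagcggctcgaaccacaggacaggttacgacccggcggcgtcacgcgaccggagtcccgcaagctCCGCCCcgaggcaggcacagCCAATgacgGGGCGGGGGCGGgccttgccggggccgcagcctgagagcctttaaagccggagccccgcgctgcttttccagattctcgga

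Among the 8 members with a sequence in the table (Ctsb was not matched), CACGTG was found before Ctsd only, where it occurred 157 and 10 bases before the start. The copy nearer the start lies within the longer palindrome TCACGTGA. CACGTG was present in 5.59% of the 33469 upstream windows of this length, and TCACGTGA in 0.657%. CCAAT was found before 5 of the 8 members (Ctsa, Ctsd, Ctsl, Grn and Lgmn), against 34% of all windows. GGGCGG was found before 7 of the 8 (all matched members but Ctsh), against 30.5% of all windows. A match is a description of the letters in these windows and says nothing about binding.

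Ctsb and Grn were far higher in both N2B27 media than in T, Ctsl and Ctsz were lower in CPE, and Ctsd was higher in CPE but lower in LPE. CPE against T gave 3 members higher (Ctsb, Ctsd and Grn), 3 lower (Ctsc, Ctsl and Ctsz) and 3 not called, by edgeR's quasi-likelihood test at an adjusted p under 0.05. Over all 9130 genes, 16.8% were called higher and 15.3% lower in this comparison. LPE against T gave 2 higher (Ctsb and Grn), 3 lower (Ctsc, Ctsd and Ctsz) and 4 not called, where 15.0% of all genes were higher and 14.7% lower. CPE against LPE gave 2 higher (Ctsd and Grn), 2 lower (Ctsl and Ctsz) and 5 not called, where 9.56% of all genes were higher and 8.23% lower. The median log2 fold change of the members was 0.11 in CPE against T, -0.28 in LPE against T and 0.29 in CPE against LPE, against medians of -0.01, -0.03 and 0.01 over all genes. The libraries of both groups did not overlap for 7 of the 9 members in CPE against T, 7 in LPE against T and 4 in CPE against LPE, against 54.4%, 47.3% and 31.3% of all genes. CPE against T and LPE against T share the T libraries, and these comparisons are not independent.

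**Figure D1:**
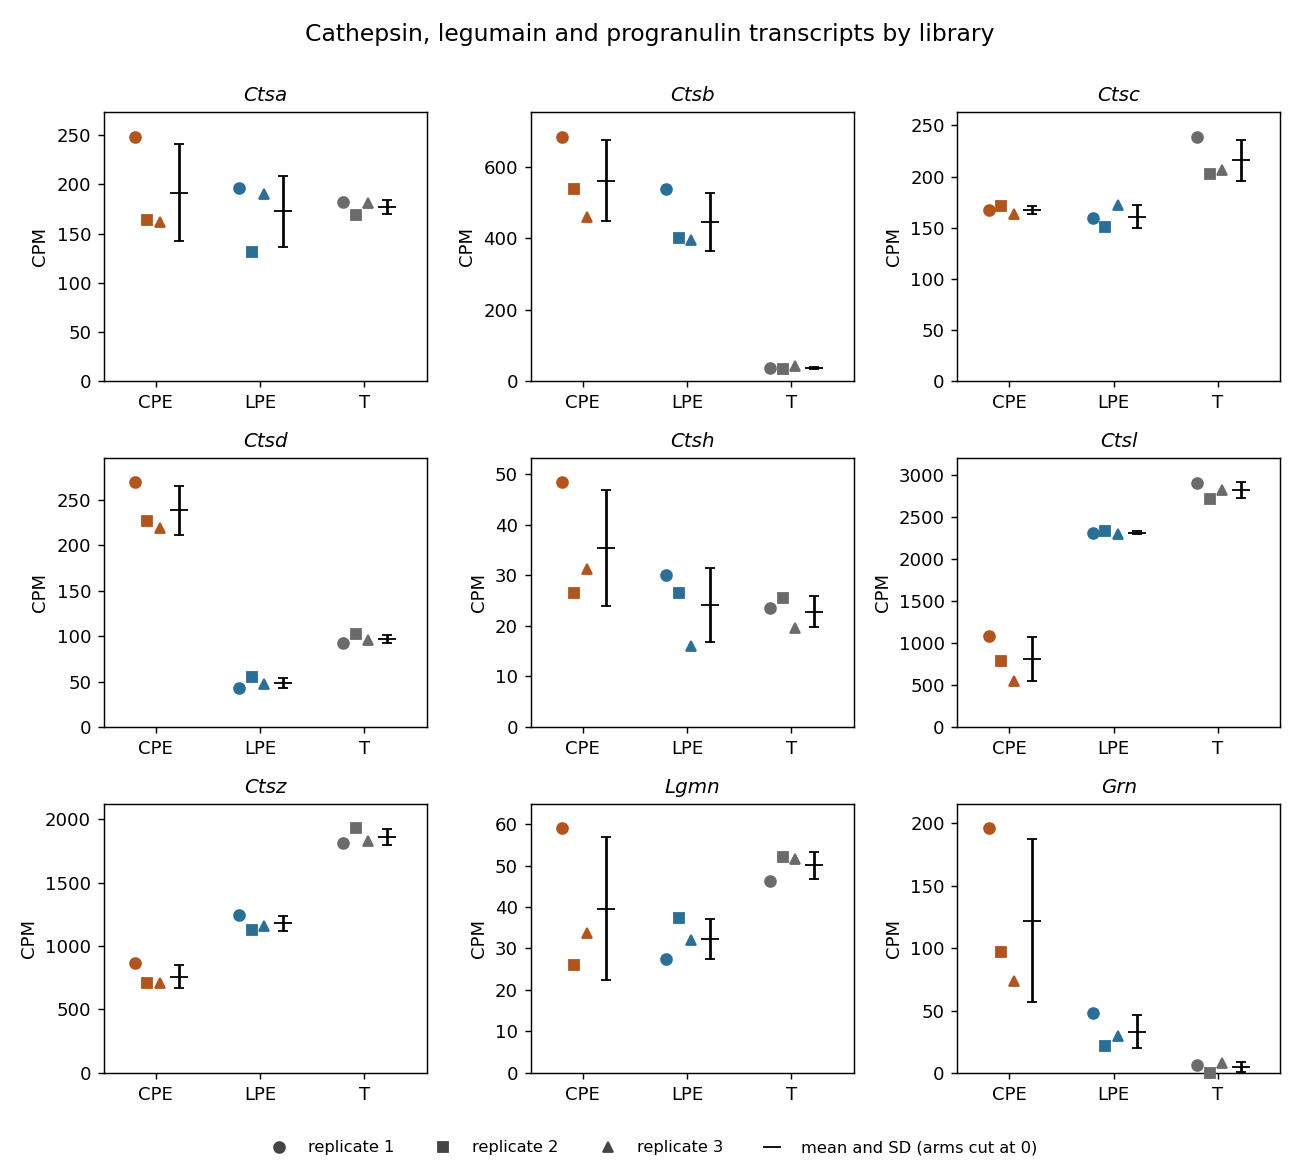
Level of each of the 9 genes in CPM (linear axis from 0, its range set per gene) in the CPE, LPE and T libraries. Coloured symbols are the 3 replicates, and the black bar is the mean with its SD (n = 3). Ctsb lies at 461 to 685 CPM in CPE and 395 to 539.6 in LPE, above 33.6 to 41.4 in T, while Ctsl lies at 551 to 1077 CPM in CPE, below 2297 to 2335 in LPE and 2718 to 2908 in T.

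Ctsb encodes cathepsin B, a cysteine protease that cuts within proteins and also trims their C-terminal ends. Its levels were 685, 539 and 461 CPM in the CPE libraries, 539.6, 401 and 395 CPM in the LPE libraries, and 36.0, 33.6 and 41.4 CPM in the T libraries. Every N2B27 library lay above every T library, and the CPE and LPE libraries overlapped. The log2 fold change was 3.92 (SE 0.19, edgeR adjusted p = 1.8e-09) in CPE against T and 3.58 (SE 0.19, adjusted p = 4.5e-09) in LPE against T, or 15.1-fold and 11.98-fold. Among all genes, 1.33% were called at least 10-fold higher in CPE against T, and 0.46% in LPE against T. CPE and LPE were not told apart (log2 fold change 0.33, adjusted p = 0.15, 95% interval 0.01 to 0.66 before adjustment), although without LPE replicate 1 the difference was 0.50 with an adjusted p of 0.047.

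Grn, the progranulin gene, had 665, 426 and 228 counts in the CPE libraries, 149, 69 and 93 in the LPE libraries, and 12, 0 and 17 in the T libraries. These correspond to 196, 96.8 and 73.4 CPM in CPE, 47.6, 21.4 and 29.8 CPM in LPE, and 6.55, 0 and 7.90 CPM in T, where the count of 0 in T replicate 2 allows up to 1.77 CPM (3 counts before the TMM factor, counting error only). The libraries of the 3 media did not overlap, with CPE highest and T lowest. The log2 fold change was 4.6 (SE 0.60, edgeR adjusted p = 2.7e-05) in CPE against T and 2.71 (SE 0.60, adjusted p = 0.0028) in LPE against T. With so few counts in T the size is wide, from 10.1-fold to 58.4-fold as the 95% interval in CPE against T and from 2.72-fold to 15.8-fold in LPE against T. Grn was also 3.70-fold higher in CPE than in LPE (adjusted p = 0.011), and this call was lost without CPE replicate 1 (log2 fold change 1.37, adjusted p = 0.10) and under DESeq2 (1.89, adjusted p = 0.097).

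Ctsd encodes cathepsin D, the main aspartic protease of lysosomes. Its levels were 269, 227 and 219 CPM in CPE, 42.8, 54.7 and 47.8 CPM in LPE, and 92.8, 102 and 96.3 CPM in T. The 3 groups did not overlap, with CPE above T and LPE below it. Ctsd was 2.46-fold higher in CPE than in T (log2 fold change 1.30, SE 0.16, edgeR adjusted p = 1.8e-05), and its log2 level fell by 1.0 (SE 0.17, adjusted p = 0.00032) in LPE against T, which is 2.00-fold lower. The difference between the N2B27 media themselves was 2.30 (SE 0.17, adjusted p = 1.5e-07), with Ctsd 4.92-fold higher in CPE than in LPE. Of all genes tested, 0.537% (49) were called lower in LPE against T and higher in CPE against T. Ctsd is also the member whose upstream window holds the pair of CACGTG matches printed above, and a link between these and its levels was not tested.

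Ctsl encodes cathepsin L, a cysteine endopeptidase. It had 1077, 791 and 551 CPM in CPE, 2303, 2335 and 2297 CPM in LPE, and 2908, 2718 and 2817 CPM in T. The CPE libraries lay below all others and spread over a factor of 1.95 between the highest and the lowest, while the LPE libraries lay within 1.02 times of each other. Ctsl fell by 3.49-fold in CPE against T (log2 fold change -1.80, SE 0.16, edgeR adjusted p = 8.4e-07) and by 2.87-fold against LPE (-1.52, SE 0.16, adjusted p = 8.5e-06). Between LPE and T the difference of -0.28 (SE 0.16, adjusted p = 0.20) did not pass, although the libraries did not overlap. It passed when only these 6 libraries were fitted (-0.25, adjusted p = 0.012) and without CPE replicate 3 (-0.29, adjusted p = 0.04).

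Ctsz encodes cathepsin Z, also called cathepsin X, a carboxypeptidase that removes single residues. It had 865, 707 and 708 CPM in CPE, 1244, 1129 and 1162 CPM in LPE, and 1814, 1929 and 1829 CPM in T. No library of 1 medium overlapped those of another, and CPE was the lowest and T the highest. Ctsz fell in every comparison, by 2.44-fold in CPE against T (log2 fold change -1.29, SE 0.10, edgeR adjusted p = 1.3e-07), 1.58-fold in LPE against T (-0.66, SE 0.09, adjusted p = 9.5e-05) and 1.55-fold in CPE against LPE (-0.63, SE 0.10, adjusted p = 0.00026).

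**Figure D2:**
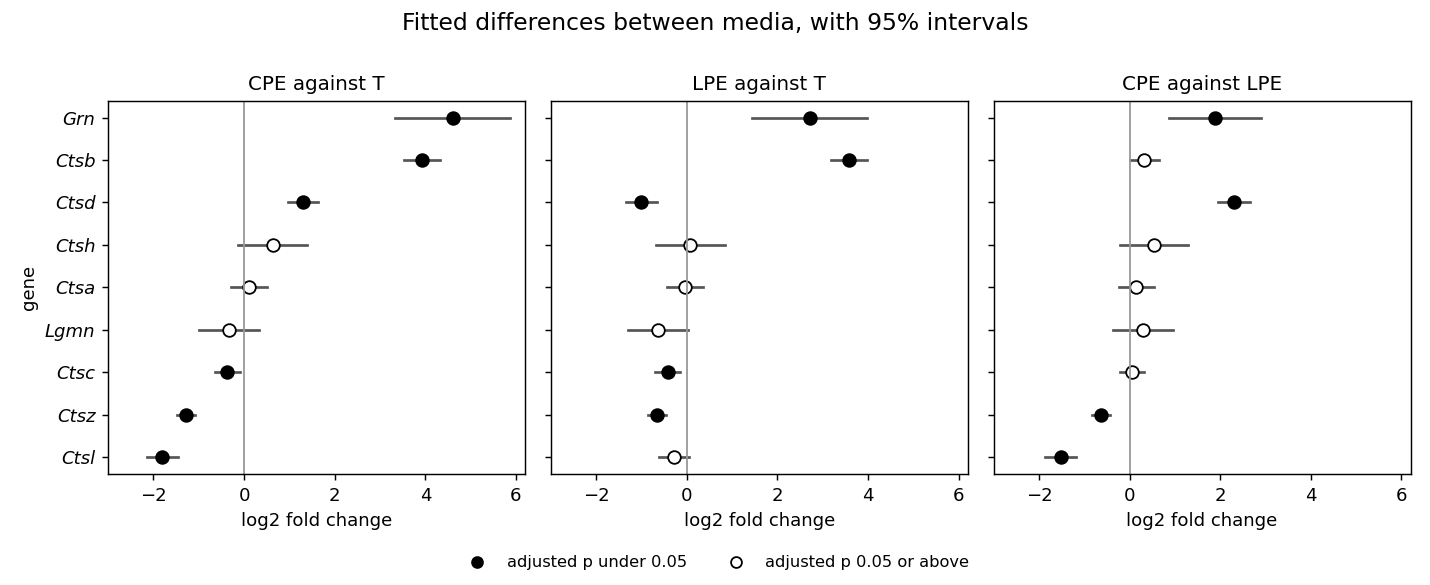
Fitted log2 fold change of each gene (horizontal axis) in CPE against T, LPE against T and CPE against LPE, with positive values meaning higher in the medium named first. Dots are the fitted values, lines their 95% intervals before adjustment, and filled dots have an adjusted p under 0.05. Ctsd lies at 1.30 in CPE against T and at -1.0 in LPE against T, whereas Ctsb lies at 3.92 and 3.58.

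Ctsc encodes cathepsin C, a dipeptidyl peptidase that activates serine proteases of immune cell granules. It had 168, 171 and 163 CPM in CPE, 159.5, 151 and 172 CPM in LPE, and 239, 202 and 206 CPM in T. Both N2B27 groups lay below T and overlapped each other. The differences were small and close to the threshold, at -0.37 (SE 0.13, edgeR adjusted p = 0.044) in CPE against T and -0.42 (SE 0.13, adjusted p = 0.024) in LPE against T. The first call was lost in 10 of 17 other settings, among them the omission of any single CPE or T library (adjusted p from 0.072 to 0.21), and the second without LPE replicate 1 or 2 or T replicate 1 or 3 (adjusted p = 0.057, 0.065, 0.14 and 0.068).

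Ctsa, Ctsh and Lgmn were not called in any comparison, nor under any of the 17 alternatives. Ctsa encodes cathepsin A, a carboxypeptidase that also protects the enzymes beta-galactosidase and neuraminidase from breakdown. It averaged 192 ± 49.3 CPM in CPE, 173 ± 36.0 in LPE and 177 ± 7.23 in T (SD, n = 3 each), the groups overlapped, and the 95% intervals of its fold were 0.818 to 1.43 in CPE against T and 0.736 to 1.28 in LPE against T. Ctsh encodes cathepsin H, an aminopeptidase, and had 48.4, 26.6 and 31.2 CPM in CPE, 30.0, 26.4 and 16.0 CPM in LPE, and 23.5, 25.5 and 19.5 CPM in T. The CPE libraries lay above those of T, but the difference of 0.63 (SE 0.36) did not pass (adjusted p = 0.20). Lgmn encodes legumain, which cuts after asparagine and processes several cathepsins into their mature forms. It had 59.0, 25.9 and 33.8 CPM in CPE, 27.5, 37.3 and 32.1 CPM in LPE, and 46.4, 52.1 and 51.6 CPM in T. The LPE libraries lay below those of T, with a difference of -0.63 (SE 0.31, adjusted p = 0.15).

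Replicate 1 of CPE held the highest level of 8 of the 9 members within its group, Ctsc being the exception, and replicate 3 the lowest of 6. Neither LPE nor T had a library in which more than 5 of the members were highest. Within CPE, the ratio of the highest to the lowest library was 2.67 for Grn, 2.28 for Lgmn, 1.95 for Ctsl, 1.49 for Ctsb and 1.05 for Ctsc. Leaving out CPE replicate 1 kept the 3 higher calls (Ctsb, Ctsd and Grn) and the calls of Ctsl and Ctsz in CPE against T, with Grn at a log2 fold change of 4.08 and Ctsl at -2.07.

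Both the summed level and the make-up of this set of transcripts differed between media. Summed over the 9 genes, the level was 3617, 2748 and 2403 CPM in CPE, 4590.0, 4287 and 4342 CPM in LPE, and 5348, 5232 and 5250.1 CPM in T, so that the groups did not overlap and CPE was lowest. Ctsl and Ctsz together made up 53.7%, 54.5% and 52.4% of this sum in CPE, 77.3%, 80.8% and 79.7% in LPE, and 88.3%, 88.8% and 88.5% in T. The sum therefore does not stand for all 9 genes, since Ctsb, Ctsd and Grn were higher in CPE than in T. The share of Ctsb was 18.9% to 19.6% in CPE, 9.09% to 11.8% in LPE and 0.642% to 0.788% in T. For each 100 Ctsl counts, a ratio that no scaling between libraries can alter, there were 63.6, 68.2 and 83.6 Ctsb counts in CPE, 23.4, 17.2 and 17.2 in LPE, and 1.24, 1.24 and 1.47 in T. The same ratio for Ctsd was 25.0, 28.7 and 39.8 in CPE, 1.86, 2.34 and 2.08 in LPE, and 3.19, 3.75 and 3.42 in T. These ratios and shares are descriptions with no test, and since counts also follow transcript length, a share compares the same gene between libraries and not the abundance of different genes.

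**Figure D3:**
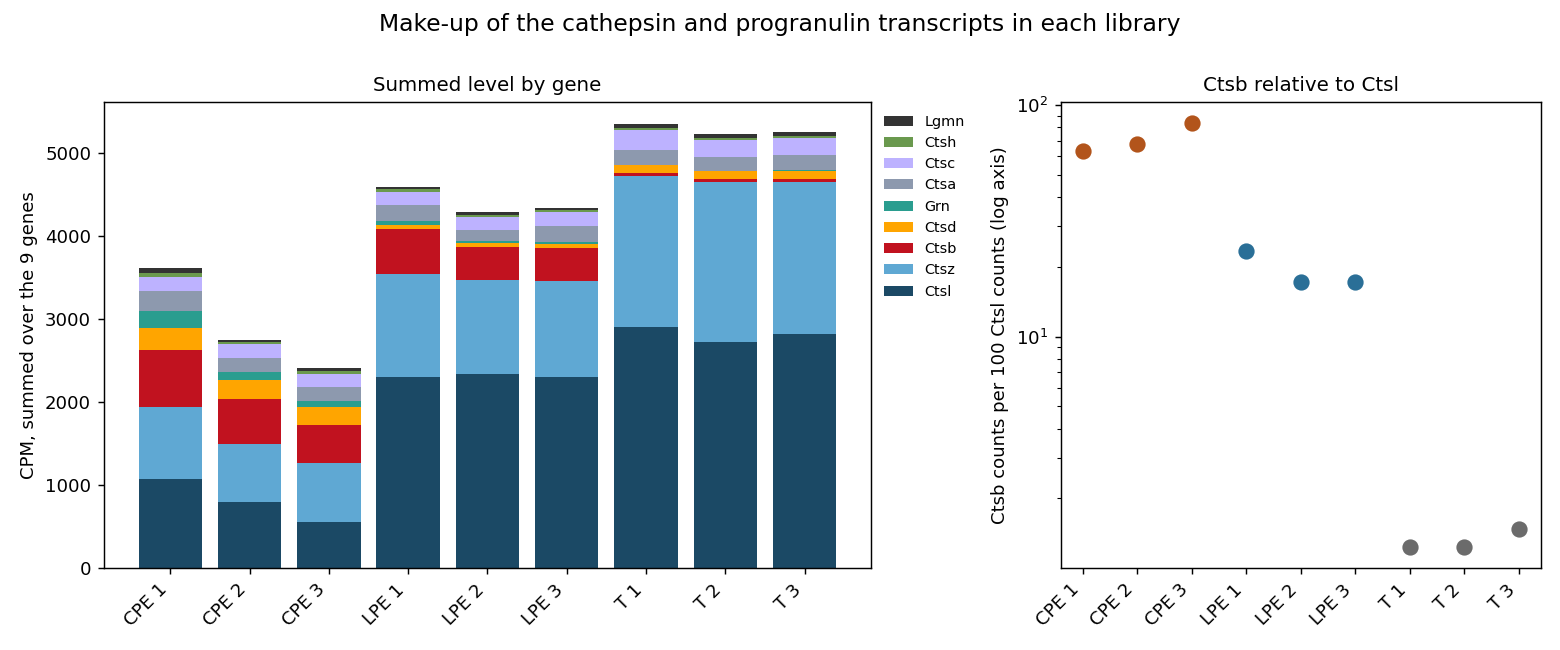
Left, summed CPM of the 9 genes in each library, with a coloured segment per gene, and right, Ctsb counts per 100 Ctsl counts on a log axis, with libraries ordered CPE, LPE and T in both. Segment sizes depend on transcript length, so that only the same colour is comparable between bars. The sum falls between 2403 and 3617 CPM in CPE, 4287 and 4590.0 in LPE and 5232 and 5348 in T, and the ratio between 63.6 and 83.6 in CPE, 17.2 and 23.4 in LPE and 1.24 and 1.47 in T.

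Among the members, the most alike profiles were those of Ctsa and Ctsc, which differed by a root mean square of 0.28 on the log2 scale over the 9 libraries after each profile was centred on its mean (pseudocount 2 CPM). Ctsa and Ctsc also had the smallest ranges of log2 group means, 0.15 and 0.42. Profiles that vary little lie close by this measure whatever their shape. Ctsl and Ctsz were apart by 0.42 and Ctsb and Grn by 0.85, whereas Ctsb and Ctsl were apart by 2.37 and Grn and Ctsl by 2.62. By the same measure, over 6302 other genes of at least 20 CPM, the genes most like Grn were Add3 (0.75), Abcc4 (0.77) and Lonrf3 (0.77). Add3 averaged 140.5 CPM in CPE, 37.2 in LPE and 6.24 in T. The genes most like Ctsb were Pdlim1 (0.33), Pcsk6 (0.34) and Krt4 (0.41), Pdlim1 averaging 259 CPM in CPE, 155 in LPE and 18.5 in T. Those most like Ctsd were Ngfrap1 (0.23), Rap2c (0.24) and Robo2 (0.28), Rap2c averaging 729 CPM in CPE, 159 in LPE and 261 in T. These are descriptions over 9 libraries of 3 media, with no test.

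Other cathepsin genes had few or no counts. Of 14 further cathepsin genes listed, 12 were in the tables, 9 of these had 0 counts in all libraries (including Ctss, the cathepsin of antigen-presenting cells, and the rodent placental genes Ctsj, Ctsm, Ctsq, Ctsr, Cts7 and Cts8), and only Ctsf, Ctsk and Ctse had any. Ctsf had 1.29 to 4.13 CPM in CPE, 0 to 8.70 in LPE and 2.32 to 7.09 in T and was not called, and Ctsk reached at most 0.644 CPM in CPE, 0 in LPE and 1.64 in T. The genes at 0 are named outside the rule for list members.

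Among genes of enzyme sorting to the lysosome, 6 of 13 tested were higher and 2 lower in CPE against T, 4 higher and 2 lower in LPE against T, and 2 higher and 3 lower in CPE against LPE. The shares over all 9130 genes were 16.8% higher and 15.3% lower in CPE against T. They were 15.0% and 14.7% in LPE against T, and 9.56% and 8.23% in CPE against LPE. The list was not tested against these shares. Igf2r, the large mannose 6-phosphate receptor, which also clears Igf2 in rodents, had 459, 427 and 684 CPM in CPE, 16.6, 32.6 and 34.0 CPM in LPE, and 18.0, 8.69 and 15.3 CPM in T. The CPE libraries lay far above all others, 36.9-fold higher than T (log2 fold change 5.21, SE 0.30, edgeR adjusted p = 9.5e-09) and 18.8-fold higher than LPE (4.23, SE 0.27, adjusted p = 4.2e-08). LPE was also called higher than T (0.97, adjusted p = 0.032), although its libraries overlapped those of T. M6pr, the small mannose 6-phosphate receptor, named outside the rule, had at most 9.99 CPM in any library and was not called. Scarb2, the receptor that delivers glucocerebrosidase, was 1.62-fold higher in CPE than in T (adjusted p = 0.020). The libraries of these groups overlapped, with CPE replicate 3 at 92.1 CPM and T replicate 3 at 98.1 CPM. Scarb2 was also 2.98-fold higher in LPE than in T (adjusted p = 5.3e-05) and 1.84-fold lower in CPE than in LPE (adjusted p = 0.007). Of the sorting adaptor genes, Gga1 rose by 2.30-fold in CPE and 2.31-fold in LPE over T, and Gga2 fell by 1.29-fold in CPE against T. Lrp2, the gene of megalin, an endocytic receptor of the yolk sac and kidney, had 203, 215 and 360 CPM in CPE, 196, 179 and 196 CPM in LPE, and 111, 71.8 and 87.0 CPM in T. Both N2B27 groups lay above T, and Lrp2 rose by 2.88-fold in CPE (adjusted p = 6.2e-05) and by 2.11-fold in LPE (adjusted p = 0.0013) over T. Gnptg, the gene of a subunit of the enzyme that adds the mannose 6-phosphate tag, was 2.03-fold lower in LPE than in T (adjusted p = 0.040). Clta, a clathrin light chain gene, was 2.35-fold lower in CPE and 2.48-fold lower in LPE than in T, where it averaged 684 ± 61.3 CPM (SD, n = 3).

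Of 8 tested partners of progranulin, 2 were higher and 1 lower in CPE against T, 2 were higher in LPE against T, and 1 was higher in CPE against LPE. The shares of all genes called are given with the sorting genes above, and the list was not tested against them. Psap, the prosaposin gene, ranked in the order of Grn, with 808 ± 51.8 CPM in CPE, 575 ± 47.0 in LPE and 344 ± 3.05 in T (SD, n = 3 each), and all 3 comparisons were called (edgeR adjusted p = 3.2e-07 for CPE against T, 5.2e-05 for LPE against T and 0.0026 for CPE against LPE). Sort1, the sortilin gene, had 0, 8.40 and 4.19 CPM in CPE, 9.59, 0 and 9.29 CPM in LPE, and 49.1, 26.6 and 44.6 CPM in T. It fell by 9.30-fold in CPE against T (adjusted p = 0.023), and the LPE difference of -2.67 on the log2 scale did not pass (adjusted p = 0.053). Lrp1, an endocytic receptor gene, rose by 3.50-fold in CPE (adjusted p = 0.014) and by 2.87-fold in LPE (adjusted p = 0.037) over T.

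Inhibitors of cathepsins moved both ways. Of 5 tested, 1 was higher and 2 lower in CPE against T, 2 were higher in LPE against T, and 1 was higher and 1 lower in CPE against LPE. These counts were not tested against the shares of all genes given with the sorting genes above. Cst3, which encodes cystatin C, a secreted inhibitor of cysteine cathepsins, had 108, 158 and 112 CPM in CPE, 718, 775 and 779 CPM in LPE, and 397, 382 and 489 CPM in T. Against T, it fell by 3.35-fold in CPE (edgeR adjusted p = 5.1e-07) and rose by 1.79-fold in LPE (adjusted p = 0.00038), and CPE was 5.99-fold lower than LPE (adjusted p = 1.9e-08). Cstb, the gene of the intracellular cystatin B, fell by 1.51-fold in CPE against T (adjusted p = 0.045). Serpinb6, a serpin gene whose product inhibits cathepsin G, rose by 3.12-fold in CPE and by 1.65-fold in LPE over T. Ctsg, the gene of that protease, had 0 counts in all 9 libraries.

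Of 3 partners of cathepsin A, Glb1, the beta-galactosidase gene, was 2.09-fold higher in CPE than in T (edgeR adjusted p = 0.0081), and the neuraminidase gene Neu1 and the sulfatase gene Galns, named outside the rule, were not called in any comparison. In LPE against T, 0 of the 3 were called by edgeR, 1 at an unadjusted p under 0.05 and 1 by DESeq2, and in CPE against LPE 0, 2 and 0. Of 7 regulators of lysosomal genes, 2 were lower in CPE against T, 1 was higher and 2 lower in LPE against T, and 0 were called in CPE against LPE by edgeR, where 3 had an unadjusted p under 0.05 and DESeq2 called 1. Neither this list nor the partners of cathepsin A were tested against the shares of all genes given with the sorting genes above. Tfeb, the transcription factor best known for driving lysosomal genes, was 1.65-fold higher in LPE than in T (adjusted p = 0.020) and stood at 84.5 ± 20.8 CPM in CPE, 94.3 ± 7.95 in LPE and 57.3 ± 7.34 in T (SD, n = 3 each). Tfec, a relative of Tfeb, was 6.29-fold lower in CPE and 4.48-fold lower in LPE than in T, where it averaged 142 ± 5.30 CPM (SD, n = 3). Mcoln1, the gene of a calcium channel of the lysosomal membrane, was 1.69-fold lower in CPE and 2.00-fold lower in LPE than in T.

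**Figure D4:**
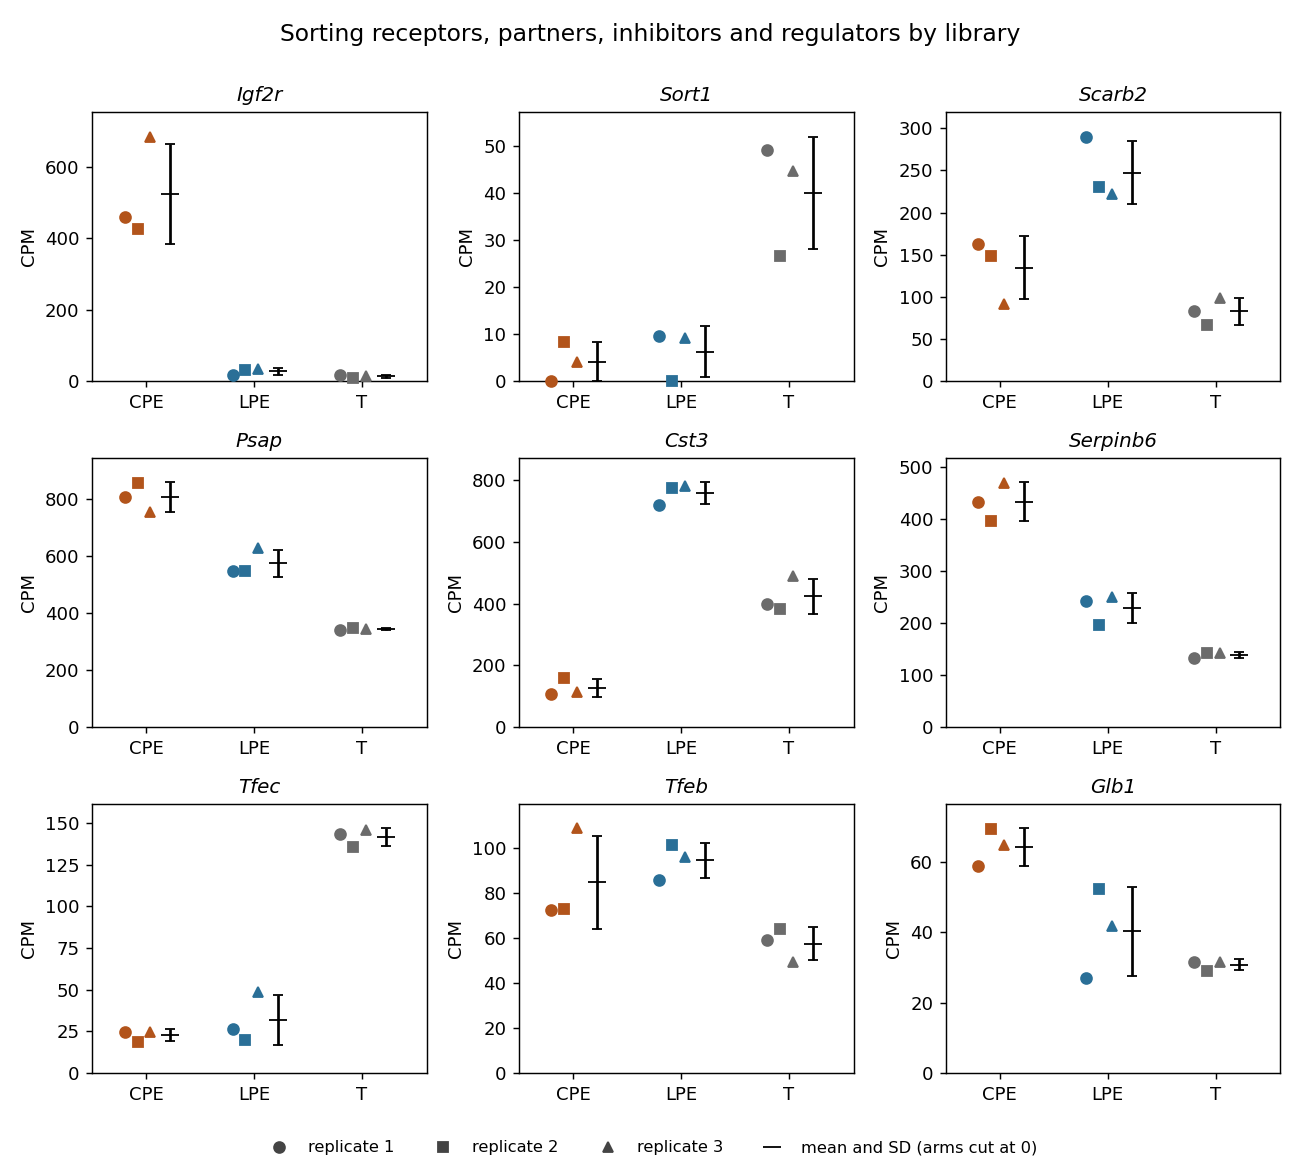
Levels in CPM (linear axis from 0, its range set per gene) of 9 genes of sorting receptors, partners, inhibitors and regulators in the CPE, LPE and T libraries. Symbols are replicates and bars are mean and SD (n = 3). Igf2r lies at 427 to 684 CPM in CPE and at most 34.0 in LPE and 18.0 in T, while Cst3 is lowest in CPE at 108 to 158 CPM.

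Strand and overlap of annotations touched only some of the members. In the GRCr8 annotation Ctsa overlaps Neurl2 and Pltp, Ctsz overlaps Nelfcd and Ctsd overlaps Tnni2, and no other gene overlaps the remaining 6 members. Counting without strand dropped 14.0% to 17.1% of the Ctsa reads in CPE, 12.8% to 39.8% in LPE and 10.5% to 19.3% in T, and at most 3.17% of the Ctsz reads in any library, while Tnni2 had 0 counts and the other members lost none.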

How the data were processed

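Total RNA was depleted of ribosomal RNA and made into libraries with a directional kit and random primers, read in pairs of 101 cycles, per the labels' protocols. CASAVA 1.8.2, Trimmomatic 0.33, STAR 2.5.1, DESeq2 and build rn6 are named in the submitters' processing notes, which give no role or order. The annotation used for counting was not given in the sources used here. The deposited tables hold the authors' raw counts of reads per gene on either strand and on each strand. Column 4 was used, since the other strand held 0.822% to 0.986% of strand-assigned reads. Reads mapping to several places (51.7% to 58.2% in CPE, 54.2% to 59.9% in LPE, 64.9% to 67.6% in T) enter no gene, and these and the other summary lines were kept out of library sizes.

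The quasi-likelihood test of edgeR 4.0.16 (R 4.3.3) was run on these counts in 1 fit of the 9 libraries, after filterByExpr (minimum count 10, minimum total 15) and TMM scaling. Adjustment was by Benjamini-Hochberg, across 9130 genes in each comparison. Each edgeR SE was derived as the size of the log2 fold change over the square root of the test's F statistic. Intervals of 95% use this SE and the fit's degrees of freedom. The method was tested on simulated counts. The 9 genes and the lists were chosen with earlier results of these data known. All 9 are described. From the other lists up to 2 called genes per direction and comparison are named, those of the largest change whose higher group reached 5 CPM, and Gata4 and Gata6 are named outside this rule. 1 gene that this rule names is not reported here. For the 3 members with the widest range of group means, the 3 most alike genes are given. Alternatives were other scalings, no filter, DESeq2 1.42.0, a replicate block, counts on either strand, fits on 6 libraries, the omission of each library, and thinning, the last chosen after seeing the data.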

Additional observations from a re-analysis of the deposited data

Results flagged for a closer look

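Ctsd changed in opposite directions against T in the N2B27 media, and the difference between CPE and LPE was itself tested, at 2.30 on the log2 scale (SE 0.17, edgeR adjusted p = 1.5e-07), higher in 3 of 3 CPE libraries than in any LPE library. Over the alternatives this difference ran from 2.20 to 2.39.

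Reads on the strand opposite to the gene, which only the alternative of counting either strand used, appeared at Ctsh in the N2B27 media. Their median share of the strand-assigned Ctsh reads was 6.29% in CPE and 0% in LPE, against 0% in every T library. Each T library had only 42 to 44 Ctsh counts on the gene's strand, so a small share could go unseen there. The counts were 11, 28 and 0 in the CPE libraries, 20, 0 and 0 in the LPE libraries, and 0, 0 and 0 in the T libraries, and the difference was not tested. With counts on either strand, the log2 fold change of Ctsh was 0.75 in CPE against T, against 0.63 on the gene's strand, and was not called (edgeR adjusted p = 0.13).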

How the results depend on the processing

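Over 17 alternatives, the counts of genes and of members called stayed within 1.5 times of their values in all 3 comparisons. Members called numbered 5 to 6 in CPE against T, 4 to 6 in LPE against T and 3 to 5 in CPE against LPE. Of 459 values of single members, 432 kept direction and side of the threshold, 16 lost the call, 3 gained it and 8 changed sign, all 8 of members that were not called. Without CPE replicate 1, Ctsa was at -0.12 in CPE against T and -0.08 in CPE against LPE, and Lgmn at -0.12 in CPE against LPE. Without LPE replicate 2, Ctsa was at 0.14 in LPE against T and -0.01 in CPE against LPE, and Ctsa was at 0.04 in LPE against T after thinning. Ctsh in LPE against T was at -0.10 without LPE replicate 1 and -0.02 without T replicate 3. Over the omission of each library in turn, Ctsa ran from -0.12 to 0.21 in CPE against T, from -0.13 to 0.14 in LPE against T and from -0.08 to 0.26 in CPE against LPE, Ctsh from -0.10 to 0.31 in LPE against T, and Lgmn from -0.12 to 0.52 in CPE against LPE. The cause was not tested. The numbers of the replicates pair the libraries only in name, since deviations of same-numbered libraries correlated at -0.0283 to 0.00998. With the replicate block 2751 genes were called in CPE against T, 2558 in LPE against T and 1500 in CPE against LPE, against 2928, 2716 and 1624 without it, and the block ended 1 member's call, that of Ctsc in CPE against T (adjusted p = 0.066). Depth limits Grn in T, where 0 to 17 counts stand behind each value.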
